A study of Mus musculus with 27 samples.

Results

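The transcripts described here encode the machinery that chooses exons in nuclear pre-mRNA: 38 genes for splicing factors, the CLK kinases that phosphorylate them, and *Ogt*, the enzyme that adds O-GlcNAc to nuclear and cytoplasmic proteins. They were chosen by name, after transcripts of this class were seen to be low in livers of KO females after alcohol cessation. Not every member was low there. The values of that contrast thus chose the group and are given below as a description, without a test. All 38 were present in each of the 4 deposited tables, among 17655 genes in all, and all 38 passed the filter on low counts in every comparison. They took between 0.208% and 0.450% of the counts of a library, and the lowest count of any of them in any library was 76.

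RNA from whole liver was sequenced in 27 *Kdm5b* fl/fl mice, 3 in each of 9 groups, and every library was 1 mouse. *Kdm5b* encodes a histone H3 lysine 4 demethylase. Mice given a control AAV8 vector are called WT although they carried the floxed allele, mice given AAV8-CMV-Cre, which drives Cre from a promoter active in many cell types, are called KO, and mice given AAV8-TBG-Cre, which drives Cre from a hepatocyte promoter, are called HepKO. On the western diet with alcohol (WDA), labelled 8 weeks, the females were WT, KO or HepKO and the males WT or KO. In the resolution (Res) groups, of both sexes and either WT or KO, the labels give 16 weeks of WDA, then the vector and 4 weeks of resolution. In the paper, mice were moved to chow and plain water when alcohol ended, so the western diet ended with it. The WDA labels list the vector before the 8 weeks of diet. All WDA libraries belong to 1 experiment and all Res libraries to another. Stage, experiment, alcohol, diet, weeks of feeding and time of the vector thus cannot be told apart. The question the design puts to these transcripts is whether loss of *Kdm5b*, or the end of alcohol and western diet, changes their level, and whether females and males differ in this.

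SR proteins bind exons through RNA recognition motifs and recruit the spliceosome through domains rich in arginine and serine. CLK kinases phosphorylate those domains and release SR proteins from nuclear speckles, while hnRNP proteins often oppose them. Many of these genes limit their own amount: part of their pre-mRNA keeps an intron or takes in an exon with a stop codon, and such transcripts stay in the nucleus or are degraded by nonsense-mediated decay. *Ogt* and *Clk1* are known examples of genes with a retained intron that responds to the state of the cell.

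The annotation of the group showed that feature. In GENCODE M21, 32 of the 38 genes (84.2%) had at least 1 annotated retained-intron transcript, against 59.1% of the 12250 annotated genes tested. An annotated transcript subject to nonsense-mediated decay was present for 33 (86.8%), against 28.6%. These genes were also annotated more richly, with a median of 9.5 transcripts against 5. Among the 2014 genes with at least as many transcripts as that median, 90% had a retained-intron transcript and 58.4% a decay transcript. Those 2014 genes had a median of 12.0 transcripts, so they were annotated more richly than the members and the shares are not matched. The members' share was lower than theirs for retained introns and higher for decay transcripts.

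The promoters of 4 members are shown because their transcripts carry the contrasts below: *Ogt* and *Ddx17* are at the lower end of the contrast that chose the group, *Luc7l3* is low in HepKO livers as well, and *Srsf5* moves the other way. *Ogt* and *Ddx17* each have a second RefSeq window that is not shown. The windows with the start farther upstream were taken by hand, with the motif counts known. The windows, from RefSeq and the build GRCm38.p6, run from 250 bases before a transcript start to 50 after it. They lie at chrX:101639801-101640100 on the plus strand for *Ogt*, chr15:79546692-79546991 on the minus strand for *Ddx17*, chr11:94321914-94322213 on the minus strand for *Luc7l3* and chr12:80945249-80945548 on the plus strand for *Srsf5*. Each is written 5′ to 3′ along its own strand. Capitals mark matches, on either strand, to an ETS motif (CCGGAAGT), an NRF1 core (GCGCATGC) or an SP box (GGGCGG). A cyclic AMP response element (TGACGTCA), a YY1 motif (AAGATGGCG), an E-box (with the letters CACGTG) and a TATA box (with the letters TATAAA) were searched as well and have no match in these 4 windows.

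Ogt: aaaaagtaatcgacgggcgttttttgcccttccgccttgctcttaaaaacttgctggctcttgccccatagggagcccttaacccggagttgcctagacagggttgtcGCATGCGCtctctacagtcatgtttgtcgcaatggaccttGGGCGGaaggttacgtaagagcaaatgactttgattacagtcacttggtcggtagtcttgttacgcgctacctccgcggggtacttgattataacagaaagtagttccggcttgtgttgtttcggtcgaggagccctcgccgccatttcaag
Ddx17: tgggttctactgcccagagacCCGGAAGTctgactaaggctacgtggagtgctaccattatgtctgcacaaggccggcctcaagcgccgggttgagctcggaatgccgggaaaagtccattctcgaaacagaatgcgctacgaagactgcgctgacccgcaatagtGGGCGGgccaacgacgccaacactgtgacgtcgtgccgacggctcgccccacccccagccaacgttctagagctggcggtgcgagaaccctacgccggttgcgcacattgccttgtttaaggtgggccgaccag
Luc7l3: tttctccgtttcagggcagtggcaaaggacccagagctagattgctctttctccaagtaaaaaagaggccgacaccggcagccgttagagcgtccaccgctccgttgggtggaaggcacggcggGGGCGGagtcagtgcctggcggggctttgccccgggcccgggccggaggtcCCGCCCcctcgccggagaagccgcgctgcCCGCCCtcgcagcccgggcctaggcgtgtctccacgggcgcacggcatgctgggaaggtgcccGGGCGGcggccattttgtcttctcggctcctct
Srsf5: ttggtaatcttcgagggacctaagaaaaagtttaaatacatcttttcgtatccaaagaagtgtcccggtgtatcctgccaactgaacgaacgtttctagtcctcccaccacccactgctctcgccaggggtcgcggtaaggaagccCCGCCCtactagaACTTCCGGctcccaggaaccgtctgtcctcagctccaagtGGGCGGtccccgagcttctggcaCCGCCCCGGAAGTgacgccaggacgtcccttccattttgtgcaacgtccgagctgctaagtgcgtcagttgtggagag

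The *Ogt* window shown held 1 NRF1 core and 1 SP box, the *Ddx17* window shown 1 ETS motif and 1 SP box, and the *Luc7l3* window 4 SP boxes. The *Srsf5* window held 2 ETS motifs and 3 SP boxes, with an ETS motif overlapping an SP box. Of the windows not shown, that of *Ogt* held 1 SP box and no NRF1 core, and that of *Ddx17* a TATA box and neither an ETS motif nor an SP box. Windows were found for 34 members (45 windows), and none is shown for *Clk1*, *Luc7l*, *Pnisr* and *U2af2*. Windows of the same member can overlap, as for *Srsf4*, in which the same ETS motif was counted more than once. An ETS motif was in 13.3% of the members' windows and 7.68% of the 12732 windows of all genes tested, an NRF1 core in 11.1% and 4.87%, an SP box in 66.7% and 60.4%, and a TATA box in 11.1% and 7.69%. A cyclic AMP response element was in 4.44% and 2.77%, an E-box in 4.44% and 9.77%, and the YY1 motif in 0% and 2.88%. The median G and C content was 64.33% against 60.33%. A match in letters is a description of the window and is not a measured binding site.

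Library totals ran from 14634602 to 19388251 expected counts, with a median of 17944536. Values per library below are counts scaled to library size (CPM, with TMM scaling), and log2 fold changes are from edgeR's quasi-likelihood fit of the groups compared. Whether the libraries of 2 groups overlapped was read on the scaling within that comparison, and on the CPM printed, scaled over all 27 libraries, 11 of 418 such readings of members differ. *Kdm5b* itself was lower in every KO Res female (12.3, 13.2 and 10.7 CPM) than in every WT Res female (16.6, 17.4 and 17.3 CPM). It was also lower in every KO than every WT Res male, in every KO than every WT WDA male (20.6 to 22.02 against 23.5 to 24.9 CPM), and in every HepKO than every WT WDA female (8.30 to 17.4 against 21.4 to 31.2 CPM). The library labelled KO WDA female mouse 1 had 24.1 CPM, within the WT range. Transcript remained in all of them, and whole liver RNA does not show from which cells or from which part of the gene.

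Some libraries stood apart. Summed hepatocyte markers were between 82169 and 190815 CPM in all groups, as the tissue label says. WT WDA female mouse 7 had 471 CPM of cholangiocyte markers (17.5 and 22.1 in its group mates), 387 CPM of stellate cell and fibroblast markers (55.3 and 67.1) and 855 CPM of macrophage markers (76.9 and 101). It also had 26.8 CPM of the female-biased *Cyp2b13* against 352 and 463 CPM. KO WDA male mouse 17 was alike in its markers, with 535 CPM of cholangiocyte (24.5 and 106 in its group mates), 441 CPM of stellate cell and fibroblast (50.3 and 132) and 593 CPM of macrophage markers (164 and 184). Cholangiocyte markers were also high in WT Res female mouse 13 (238 CPM), KO Res male mouse 5 (200.05 CPM) and WT Res male mouse 9 (157 CPM), against at most 35.8 CPM in their group mates. KO Res male mouse 5 had 87.1 CPM of *Cyp2b13* and 130 CPM of *Sult2a1*, another female-biased transcript, where its group mates had at most 1.08 and 2.11, with *Ddx3y* of the Y chromosome at 37.8 against 56.4 and 80.3 CPM. Medians without such a library stand beside the comparisons in which it moves them most. In bulk RNA, fewer cells of a type and less RNA per cell cannot be told apart.

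Per unit of transcript length the members covered a wide range. On the mean FPKM over the 27 libraries, *Srsf5* (127) was highest, followed by *Hnrnpa2b1* (110.1), the RNA helicase *Ddx5* (97.7) and *U2af1* (62.6), the subunit that reads the 3′ splice site. *Ogt* was at 9.51 FPKM, place 32 of 38, and the kinase *Clk2* was lowest at 3.37 FPKM. The ratio of the highest to the lowest library was 2.85 for *Srsf5* on the CPM scale.

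In the contrast that chose the group, KO against WT Res females, *Ogt* was at 27.5, 28.7 and 26.0 CPM in KO and 48.5, 82.1 and 81.8 CPM in WT mice (log2 fold change -1.42, SE 0.21). The helicase *Ddx17* was at 100.3, 103 and 101 CPM against 174, 228 and 236 CPM (log2 fold change -1.12, SE 0.15). In both genes the 3 KO livers lay close together and the WT livers were spread, with WT mouse 1 nearest to KO. WT mouse 1 was also the lowest WT mouse for *Luc7l3*, a U1 snRNP-associated protein, with 24.5, 42.5 and 39.2 CPM in WT and 17.01, 20.5 and 19.9 CPM in KO mice (log2 fold change -0.94, SE 0.21). *Clk1* was at 24.1, 26.2 and 26.1 CPM in KO and 32.2, 53.6 and 45.7 CPM in WT mice (log2 fold change -0.83, SE 0.19).

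Over the group, 21 of 38 members were lower in every KO than in every WT Res female and 3 were higher, where 14.5% and 11.3% of 12577 genes were. The median log2 fold change was -0.31 over the members and -0.02 over all genes tested, and -0.32 over the members without WT mouse 13. On the CPM scaled over all libraries *Hnrnpu* overlapped and *Srrm1* was higher. Since these values chose the group, nothing is read from the counts. Among kinases, 4 of 5 were lower without overlap: *Clk1*, *Clk3* (log2 fold change -0.71), *Prpf4b* (-0.65), the kinase of the PRP4 family, and *Clk2* (-0.43), while *Clk4* overlapped at 21.5, 26.4 and 20.8 CPM in KO and 28.1, 25.2 and 22.9 CPM in WT mice. All 6 RBM genes had a negative value and 4 did not overlap, led by *Rbm5* (-1.18) and *Rbm10* (-1.06), regulators of exon skipping. *Rbm39* was nearly level at 116, 129.6 and 119 CPM in KO and 115, 141 and 121 CPM in WT mice.

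The SR proteins and TRA2 genes were divided. Lower without overlap were *Srsf1* (-0.66), *Srsf10* (-0.51), *Srsf2* (-0.43), *Srsf11* (-0.28) and *Srsf6* (-0.15), whereas *Srsf5* (0.39), *Srsf3* (0.18) and *Srsf4* (0.11) had positive values with overlap. *Srsf5* was uniform in KO mice, at 242, 230.0 and 232 CPM, and ranged over 247, 119 and 156 CPM in WT mice. Of the speckle proteins, *Pnisr* was lower (33.3, 33.7 and 30.7 against 45.2, 49.2 and 42.1 CPM) and *Son*, a scaffold of the speckle, overlapped (175, 187 and 192 against 205, 175 and 199 CPM). The 3 members higher in every KO mouse were *U2af1* (0.42), *Ddx5* (0.26) and *Sf3b1* (0.13), a branch site protein whose sign turned with library totals as the scaling. *Ddx5* was at 415, 460.3 and 419 CPM in KO and 374, 323 and 350.1 CPM in WT mice, opposite to its paralog *Ddx17*. The rule set no threshold on values: nearest to 0 on either side were *Hnrnpa1* (-0.07) and *Srsf4* (0.11).

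**Figure D1:**
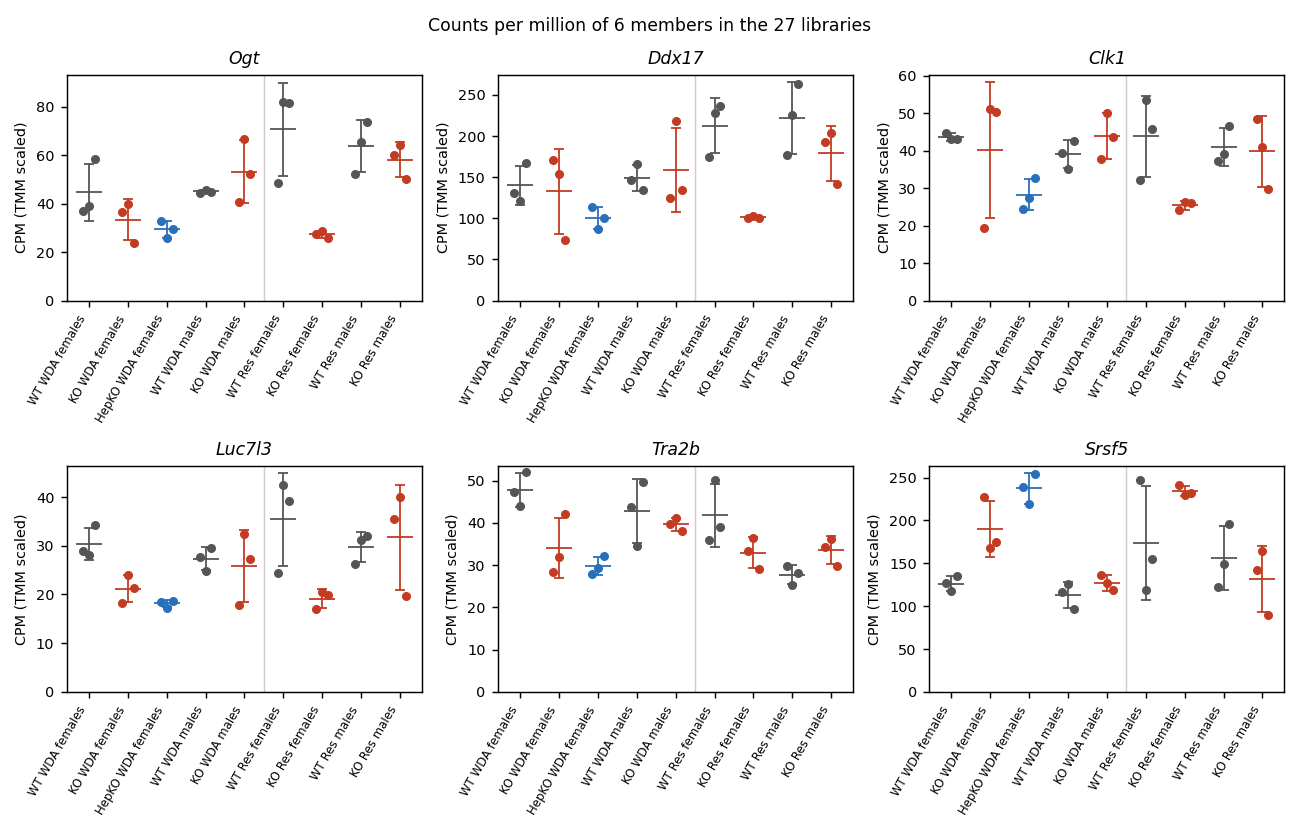
CPM (linear axis from 0, TMM scaled) of *Ogt*, *Ddx17*, *Clk1*, *Luc7l3*, *Tra2b* and *Srsf5* in the 27 libraries, with a point for each mouse, a bar at the mean and whiskers of 1 SD over the 3 mice of a group (WT grey, KO red, HepKO blue), WDA groups left of the vertical line and Res groups right of it. The KO Res females lie together at 26.0 to 28.7 CPM for *Ogt*, and the HepKO livers lie at 17.3 to 18.7 CPM for *Luc7l3* and at 219 to 254 CPM for *Srsf5*.

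The comparison with the libraries of that contrast on its WT side also has to be read as a description. From WDA to Res, WT females had 17 members higher without overlap and 0 lower (10.3% of 12603 genes lower and 10.3% higher), with a median log2 fold change of 0.36 over the members and -0.02 over all genes (0.38 over the members without WDA mouse 7). The highest were *Rbm33* (1.06), *Pnisr* (0.82) and *Srrm2* (0.79), a large SR-related matrix protein. In KO females the same stage contrast had 12 members higher and 4 lower (20.3% of 12470 genes lower and 20.2% higher), with a median of 0.09. The 4 lower were *Rbm5*, *Srsf1*, *Rbm10* and *Hnrnpu*. *Rbm10* was thus higher after resolution in every WT and lower in every KO female. As a mean of centred log2 CPM over the 38 members, the WT Res females were at 0.22 to 0.40, a range that only KO Res male mouse 5, at 0.25, reached among the other libraries. KO Res females were at -0.02 to 0.05, and all female WDA libraries were at -0.25 to 0.10.

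HepKO against WT females on WDA used none of the livers that chose the members, and most of the members with large differences there were lower. *Luc7l3* was at 18.5, 17.3 and 18.7 CPM in HepKO and 28.9, 28.2 and 34.2 CPM in WT mice (log2 fold change -0.75, SE 0.12). *Clk1* was at 24.5, 27.5 and 32.6 CPM against 44.8, 43.1 and 43.1 CPM (-0.64, SE 0.13). *Srsf5* was at 239, 219 and 254 CPM against 127, 118 and 135 CPM (0.90, SE 0.13). In each of these the groups were far apart compared with their own spread.

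The SR-like activators *Tra2a* and *Tra2b* showed the same separation. *Tra2a* was at 14.5, 12.0 and 13.1 CPM in HepKO and 21.3, 19.7 and 24.9 CPM in WT mice (-0.74, SE 0.14), and *Tra2b* at 28.0, 29.4 and 32.2 CPM against 47.4, 44.1 and 52.2 CPM (-0.69, SE 0.12). *Luc7l* was at 16.8, 17.9 and 18.2 CPM against 31.4, 28.9 and 24.8 CPM (-0.69, SE 0.12). *Rbm5* (-0.70, SE 0.14), *Rbm10* (-0.59, SE 0.13) and *Srsf1* (-0.53, SE 0.11) were also lower in every HepKO than every WT mouse.

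*Ogt* and *Ddx17* were lower with a larger error. *Ogt* was at 33.0, 26.0 and 29.4 CPM in HepKO and 37.0, 38.9 and 58.4 CPM in WT mice (-0.61, SE 0.21), and *Ddx17* at 114, 86.6 and 99.9 CPM against 131, 121 and 167 CPM (-0.49, SE 0.18). *Ddx5* was higher in every HepKO mouse, at 346, 326 and 342 against 278, 265 and 280.5 CPM (0.29). *Clk4* (17.9, 17.7 and 20.2 against 18.8, 18.6 and 19.7 CPM), *Rbm39* (109, 94.7 and 103 against 99.9, 98.7 and 128 CPM), *Pnisr* (22.8, 20.7 and 25.6 against 25.1, 24.7 and 27.6 CPM) and *Son* (159.9, 144 and 175 against 117, 129.8 and 164 CPM) overlapped.

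Over the 38 members, 16 were lower and 5 higher without overlap, where 9.35% of 12413 genes were lower and 9.37% higher. The median log2 fold change was -0.17 over the members and -0.02 over all genes, -0.11 and 0.00 without WT mouse 7, and -0.35 and -0.17 with library totals as the scaling. At an unadjusted p-value under 0.05, 13 members were lower and 1, *Srsf5*, was higher, where 5.25% and 4.81% of all genes were. After Benjamini-Hochberg adjustment no member passed 0.05 in edgeR, and neither did any other gene (0%). The smallest adjusted p-values of members were 0.150 for *Srsf5*, 0.164 for *Luc7l3*, 0.170 for *Luc7l* and 0.176 for *Tra2b*.

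The call depended on the test and on 1 library. DESeq2 called 7 members lower (0.728% of 12231 genes were called lower), with adjusted p-values of 0.000579 for *Luc7l3*, 0.000649 for *Tra2b*, 0.00428 for *Srsf1*, 0.00732 for *Luc7l*, 0.00936 for *Tra2a*, 0.0152 for *Clk1* and 0.0163 for *Rbm5*. It called *Srsf5* higher with an adjusted p-value of 1.19e-09 (0.940% of genes were called higher). Without WT mouse 7, the liver with high cholangiocyte, stellate and macrophage markers, edgeR called 8 members lower (1.27% of 12471 genes) and *Srsf5* higher (1.53%). The 8 were the 7 called by DESeq2 and *Rbm10*, with adjusted p-values from 0.00747 (*Luc7l*) to 0.0492 (*Rbm10*), and *Srsf5* had 0.00235. Without another mouse no member was called. *Ogt* was called by neither test, the adjusted p-values being 0.424 (edgeR) and 0.274 (DESeq2). Summed Kupffer cell markers (5 genes) were at 297 to 681 CPM in HepKO and 213 to 286 CPM in WT mice, with 3 of the 5 higher without overlap, and summed endothelial markers (6 genes) at 258 to 284 and 185 to 283 CPM. Their part in the result was not tested.

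**Figure D2:**
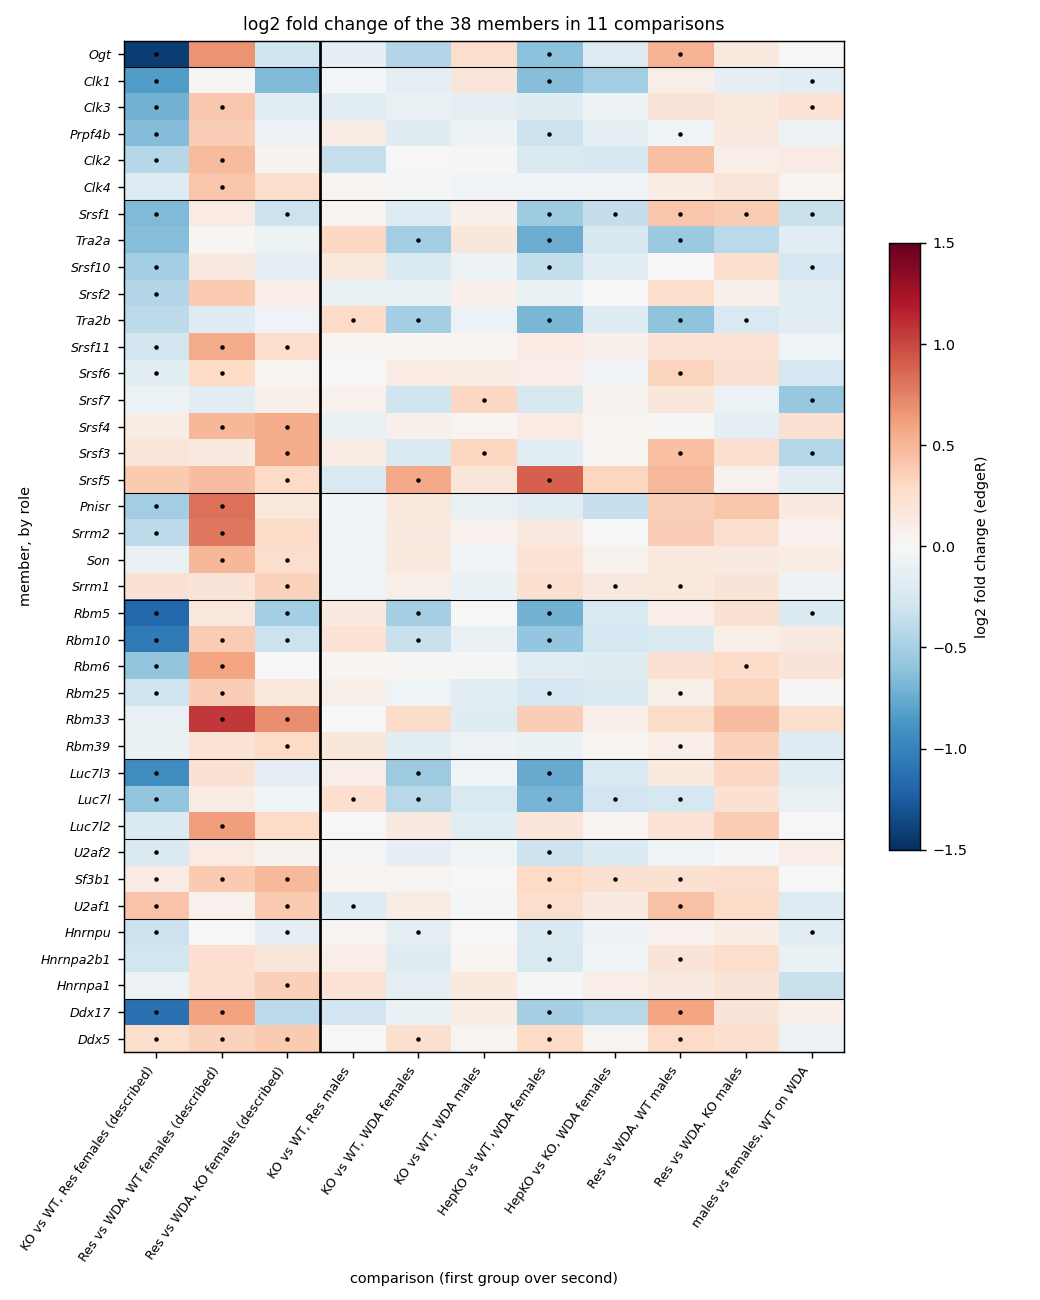
Heat map of the log2 fold change (edgeR, first group over second, colour scale from -1.5 to 1.5) of the 38 members, in rows grouped by role, in 11 comparisons of 3 against 3 mice, with a dot where the libraries of the groups did not overlap and the 3 described contrasts left of the thick line. The HepKO column is blue for *Luc7l3*, *Tra2a*, *Rbm5*, *Luc7l* and *Tra2b* (-0.75 to -0.69) and red for *Srsf5* (0.90), and the columns of KO against WT males hold 3 dots (Res) and 2 dots (WDA).

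KO against WT females on WDA, which shares its 3 WT libraries with the HepKO comparison, had smaller values. *Luc7l3* was at 18.4, 24.0 and 21.3 CPM in KO mice (-0.54, SE 0.16), *Tra2a* at 17.3, 14.9 and 14.6 CPM (-0.51, SE 0.15), *Tra2b* at 28.3, 32.0 and 42.0 CPM (-0.51, SE 0.18) and *Srsf5* at 228, 167 and 175 CPM (0.57, SE 0.17). All of these lay outside the WT ranges. In contrast, *Ogt* (36.7, 40.0 and 23.7 CPM), *Ddx17* (171, 154 and 74.2 CPM) and *Clk1* (19.3, 51.1 and 50.3 CPM) varied more among the 3 KO mice than between the groups. In total 7 members were lower and 2 higher without overlap (4.57% of 12397 genes lower and 4.36% higher), and 6 and 1 at an unadjusted p-value under 0.05 (1.70% and 1.40%). The median was -0.11 over the members and -0.02 over all genes, and 0.01 and 0.01 without WT mouse 7, so that the lower median rested on that library, while 6 members lower and 3 higher then had an unadjusted p-value under 0.05. With library totals as the scaling the medians were -0.24 and -0.13. None passed the adjusted threshold in edgeR or DESeq2 (0% of all genes in edgeR), with an adjusted p-value of 0.978 for each of the 7.

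Between HepKO and KO females on WDA, the vectors differ in the promoter of Cre. *Srsf1* (-0.36, SE 0.12) and *Luc7l* (-0.29, SE 0.11) were lower in every HepKO mouse, and *Sf3b1* (0.23) and *Srrm1* (0.13) higher, where 5.30% of 12351 genes were lower and 5.44% higher. At an unadjusted p-value under 0.05, 2 members were lower (*Srsf1* and *Luc7l*) and 2 higher (*Sf3b1* and *Srsf5*), where 2.68% and 3.06% of all genes were. The members' median was -0.07, and -0.10 without KO mouse 1. On the CPM scaled over all libraries *Tra2a* was lower in every HepKO mouse as well. No member passed the adjusted threshold in edgeR or DESeq2, and 0.0162% of all genes did in edgeR.

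In males KO gave no call among the members. After resolution, *Ogt* was at 60.04, 64.4 and 50.2 CPM in KO and 52.2, 65.7 and 73.8 CPM in WT males (-0.12, SE 0.17), *Ddx17* at 193, 204 and 141 against 176, 225 and 263 CPM (-0.29, SE 0.21), and *Luc7l3* at 35.5, 40.0 and 19.6 against 26.3, 31.1 and 32.0 CPM (0.10). *Clk1* was at 48.5, 41.0 and 29.8 CPM in KO and 37.1, 39.2 and 46.6 CPM in WT males, and *Srsf5* at 142, 165 and 89.2 CPM against 122, 149.6 and 196 CPM. Every one of these overlapped, and KO mouse 6 was the lowest KO male in each. *Luc7l* (0.25) and *Tra2b* (0.29) were higher and *U2af1* (-0.19) lower without overlap, 2 and 1 of 38 members, where 2.42% and 2.28% of 12620 genes were. The median log2 fold change was 0.03 over the members and 0.01 over all genes. It was -0.13 without KO mouse 5, the liver with female-biased transcripts, and 0.20 without KO mouse 6. No member had an unadjusted p-value under 0.05 (0.452% of all genes were lower and 0.998% higher), the median of 0.03 was -0.13 without KO mouse 5, and none passed the adjusted threshold in edgeR or DESeq2 (0% of all genes in edgeR).

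The other members with values in each library behaved alike in Res males. *Ddx5* was at 344, 369 and 211 CPM in KO and 312, 286 and 338 CPM in WT males, *Rbm39* at 123, 129 and 86.6 against 104, 100.4 and 100.1 CPM, and *Son* at 168, 174 and 123 against 146, 149 and 193 CPM. *Pnisr* was at 39.5, 42.2 and 21.7 against 27.8, 39.2 and 40.7 CPM and *Clk4* at 22.01, 26.8 and 15.2 against 16.2, 21.1 and 25.4 CPM. KO mouse 6 was again lowest, below every WT male for *Ddx5*, *Rbm39*, *Son*, *Pnisr* and *Clk4*.

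On WDA, *Ogt* was at 40.9, 66.6 and 52.4 CPM in KO and 44.6, 45.9 and 44.8 CPM in WT males (0.26, SE 0.18), and *Luc7l3* at 17.9, 32.4 and 27.3 against 27.7, 24.9 and 29.5 CPM (-0.06). *Clk1* (37.8, 50.02 and 43.6 against 39.5, 35.1 and 42.6 CPM), *Ddx17* (124, 218 and 135 against 146, 166 and 135 CPM) and *Srsf5* (137, 127 and 118 against 117, 126 and 96.9 CPM) overlapped too. KO mouse 17, the liver with high cholangiocyte, stellate and macrophage markers, was the highest KO male for *Ogt*, *Ddx17*, *Clk1* and *Luc7l3*. Markers higher in every KO than every WT WDA male were 3 of 7 of macrophages and monocytes, 2 of 8 of stellate cells and fibroblasts, 2 of 5 tested of lymphocytes and neutrophils and 2 of 3 tested of proliferating cells, and their part in the result was not tested. The members' median was 0.00, as over all genes, and -0.11 without KO mouse 17. With library totals as the scaling it was 0.23, where that of all genes was 0.21. The members without overlap were *Srsf3* (0.32, SE 0.11) and *Srsf7* (0.31, SE 0.12), higher in KO, where 8.12% of 12419 genes were higher and 7.86% lower. On the CPM scaled over all libraries *Srrm1* was also lower in every KO male. *Srsf3* and *Srsf7* had an unadjusted p-value under 0.05 (2.15% of all genes were lower and 5.56% higher) and an adjusted p-value of 0.588, and no member or other gene passed in edgeR (0%), nor any member in DESeq2.

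The rest of the members shown in every library overlapped between KO and WT males on WDA. *Ddx5* was at 239, 314 and 238 CPM in KO and 255, 271 and 249.97 CPM in WT males, *Son* at 127, 170.0 and 133 against 147, 155 and 145 CPM, and *Rbm39* at 88.2, 90.9 and 90.4 against 90.5, 99.5 and 97.1 CPM. *Pnisr* was at 20.7, 32.5 and 24.9 against 29.3, 28.6 and 27.8 CPM and *Clk4* at 16.8, 22.2 and 17.9 against 19.1, 20.6 and 19.5 CPM. In WDA females the KO values, which also overlapped WT for all but *Ddx5*, were 351, 323 and 309.8 CPM for *Ddx5*, 155, 169.6 and 138 CPM for *Son* and 89.1, 97.3 and 111 CPM for *Rbm39*. They were 38.04, 31.9 and 17.8 CPM for *Pnisr* and 18.2, 21.2 and 17.7 CPM for *Clk4*, and *Ddx5* was higher in every KO than in every WT female (0.24).

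Whether KO acted differently in the sexes on WDA was tested as an interaction. *Tra2a* (0.65), *Srsf7* (0.59) and *Srsf3* (0.51) had positive interactions, a less negative or more positive KO value in males, each with an unadjusted p-value under 0.05 and an adjusted p-value of 0.430 in edgeR. These 3 of 38 are near the share of all genes with a positive interaction at that threshold, 8.35% of 12895 (3.05% negative), and without WT female mouse 7 the count was 1. For the interaction of KO with stage, fitted in males, *Luc7l* alone passed an unadjusted 0.05 (0.51, adjusted p-value 0.932), where 1.26% of 13107 genes had a positive and 1.98% a negative value. No member passed the adjusted threshold for either interaction in edgeR or DESeq2. For the contrast of sexes after resolution no test is given, because its female libraries chose the group.

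WT males showed a stage difference. From WDA to Res, *Ogt* rose from 44.6, 45.9 and 44.8 to 52.2, 65.7 and 73.8 CPM (0.52, SE 0.13, edgeR's adjusted p-value 0.0436). *U2af1* rose from 32.7, 36.0 and 34.1 to 46.5, 46.1 and 45.5 CPM (0.44, SE 0.08, adjusted p-value 0.0179), and *Srsf1* from 55.9, 54.7 and 64.7 to 84.5, 75.3 and 71.9 CPM (0.42, SE 0.10, adjusted p-value 0.0359). *Tra2b* fell from 43.8, 34.7 and 49.8 to 29.7, 25.3 and 28.2 CPM (-0.60, SE 0.14, adjusted p-value 0.0340).

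These 3 higher and 1 lower of 38 compare with 4.99% of 12408 genes called higher and 5.98% called lower, 11.0% in all, so the share of the members called was near that of all genes. DESeq2 called *Tra2a* and *Ddx17* in addition. Without overlap, 12 members were higher and 4 lower (17.6% of genes higher and 18.5% lower), with a median log2 fold change of 0.18 against 0.02 over all genes. It was 0.32 against 0.16 with library totals as the scaling, and 0.09 over the members without Res mouse 9. At an unadjusted p-value under 0.05, 10 members were higher and 3 lower, where 15.3% and 15.4% of all genes were. The 10 included *Ddx17* (0.59, adjusted p-value 0.0503) and *Srsf3* (0.45, adjusted p-value 0.0700), and *Tra2a* was lower (-0.55, adjusted p-value 0.0724). The sign of *Prpf4b*, which was lower without overlap (-0.07), turned with library totals as the scaling. The calls were not stable to single mice: 0 members were called higher without WDA mouse 19, 20 or 21 or Res mouse 8, and 5 without Res mouse 9, while *Tra2b* lost its call without WDA mouse 19 or 21 or Res mouse 7 or 8. Markers of immune cells were also higher in the Res males: 5 of 7 lymphocyte and neutrophil markers were called higher (summed 8.42 to 15.2 against 3.07 to 4.60 CPM) and 3 of 7 macrophage and monocyte markers (196 to 278 against 105 to 139 CPM). Of 13 clock genes 4 were called lower and 3 higher, among them *Dbp* (-4.21), *Nr1d1* (-3.15) and *Npas2* (2.57). The part of these markers and clock genes in the result was not tested.

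In KO males the stage contrast gave no call. The median log2 fold change was 0.21 over the members and -0.01 over all genes, and 32 of 38 had a positive value, with *Srsf1* (0.39) and *Rbm6* (0.28) higher and *Tra2b* (-0.23) lower without overlap (7.43% of 12747 genes higher and 5.54% lower). On the CPM scaled over all libraries *Srsf1* and *Rbm6* overlapped, with Res mouse 6 just below WDA mouse 17. Without mouse 5 the median was 0.08 and without mouse 6 it was 0.32. The median was 0.30 without WDA mouse 17 and 0.08 without Res mouse 5. *Srsf1* was the only member with an unadjusted p-value under 0.05 (3.22% of all genes were higher and 3.21% lower), and none passed the adjusted threshold in edgeR or DESeq2 (0% of all genes in edgeR).

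Between WT males and WT females on WDA the members with the lowest values were SR proteins. *Srsf7* was at 19.5, 16.5 and 19.3 CPM in males and 26.4, 24.0 and 31.1 CPM in females (-0.57, SE 0.14). Its adjusted p-value was 0.145 in edgeR and 0.0461 in DESeq2, which called no other member. *Srsf3* (-0.43), *Srsf1* (-0.34) and *Srsf10* (-0.25) were also lower in every male with an unadjusted p-value under 0.05, so that 4 members were lower and 0 higher at that threshold, where 7.31% and 6.91% of all genes were. The medians over the members and all genes were -0.09 and -0.03, -0.02 and 0.01 without WT female mouse 7, and -0.42 and -0.35 with library totals as the scaling. In total 7 members were lower and 1 higher without overlap (11.5% of 12333 genes lower and 12.9% higher), and 0.851% of all genes passed the adjusted threshold in edgeR. On the CPM scaled over all libraries *Pnisr*, *Rbm33* and *U2af2* were also higher in every male. *Ogt*, which lies on the X chromosome, had a log2 fold change of -0.00 (SE 0.19), and the sign of *Clk3*, the 1 higher, turned with library totals as the scaling.

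Contrasts that share no library with KO against WT Res females can be set beside it, as a description over genes that are not independent of each other. The values of KO against WT Res females chose the members, so the members' values there are not a sample of all genes. A rho or share above that of all genes is therefore not a test. The 3 contrasts of WDA females share libraries among themselves. Over the 38 members, Spearman's rho between the log2 fold changes was 0.79 with HepKO against WT on WDA, where it was 0.46 over all genes in both fits. Of the 21 members lower without overlap in KO Res females, 18 had a negative value in HepKO livers and 13 were lower without overlap, where 79.5% and 27.8% of all genes lower in KO Res females were. All 3 members higher in KO Res females, *U2af1*, *Ddx5* and *Sf3b1*, were higher without overlap in HepKO livers. With KO against WT females on WDA rho was 0.55 (0.32 over all genes), and 15 of the 21 were negative and 5 lower without overlap, where 67.7% and 9.63% of such genes were. With HepKO against KO females on WDA rho was 0.83 (0.28 over all genes), and 20 of the 21 were negative and 2 lower without overlap, where 74.9% and 12.1% of such genes were. With KO against WT in WDA males it was 0.09 (-0.08 over all genes) and in Res males -0.13 (-0.06 over all genes), and none of the 21 was lower without overlap in either. Of such genes only 9.78% in WDA males and 1.93% in Res males were. In WDA males 12 of the 21 were negative (55% of such genes), and in Res males 9 were (48.9%).

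**Figure D3:**
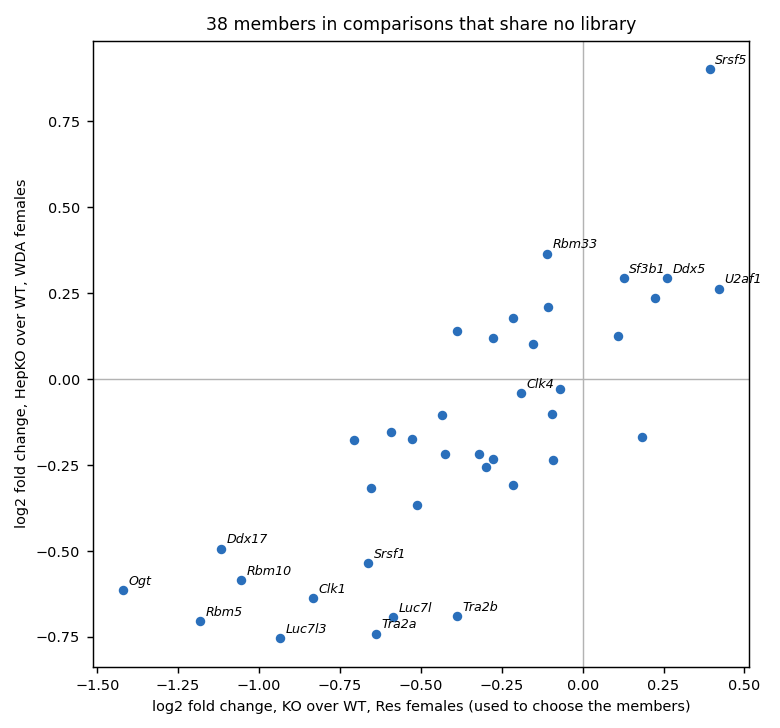
Log2 fold change of each of the 38 members in KO against WT Res females (horizontal axis, the contrast that chose them) and in HepKO against WT females on WDA (vertical axis), from 3 mice a group with no library in common. *Ogt*, *Rbm5*, *Ddx17*, *Rbm10*, *Luc7l3* and *Clk1* lie low on both axes, and *Srsf5*, *U2af1*, *Ddx5* and *Sf3b1* lie above 0 on both.

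Transcript length followed several of these contrasts over all genes. With genes cut into 10 bins by the length that count over FPKM implies, the bin medians in KO against WT Res females ran from 0.12 in the shortest to -0.13 in the longest, and Spearman's rho between length and log2 fold change was -0.22. The members' median was 0.24 below the medians of their own bins, with 29 below and 9 above (0.31 below with the annotated length). From WDA to Res in WT females rho was 0.43 and the members were 0.29 above their bins. In the contrasts on WDA the trend was weak: rho was 0.06 in HepKO against WT, with the members 0.16 below their bins (26 below and 12 above), and 0.07 in KO against WT females, with the members 0.11 below. In the stage contrasts of males rho was 0.25 in WT and 0.26 in KO mice, and the members were 0.13 and 0.21 above their bins. In KO against WT males the members were 0.01 above their bins after resolution and 0.00 on WDA.

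**Figure D4:**
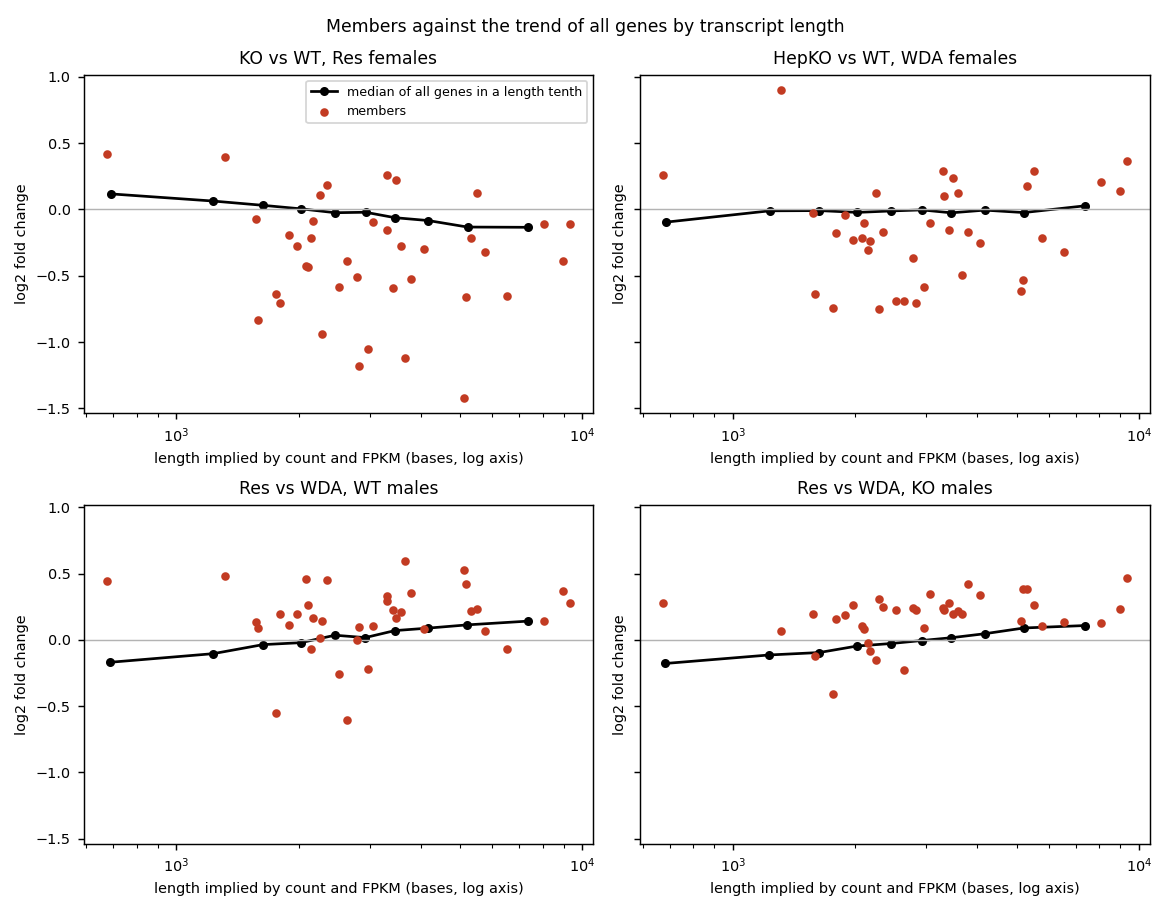
Log2 fold change against the length implied by count and FPKM (bases, log axis) in 4 comparisons, with the black line joining the medians of all genes in 10 bins of length and a red point for each member. In KO against WT Res females the line falls from 0.12 to -0.13 and 29 of 38 members lie below the median of their bin, and in Res against WDA in KO males the line rises and 33 lie above.

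The 2 deposited measures also show a shift within genes. The ratio of count to FPKM follows the effective length that the authors' quantification assigned to a gene in a library, which moves when reads shift between isoforms of unlike length. Each gene's length was compared with its median over the 27 libraries. A library's lengths were then divided by the median of these ratios over genes, so the bases printed are scaled values. Of 9104 genes with such a length in all 27 libraries, 6083 (66.8%) stayed within 5%, and of the 38 members 16 did. In HepKO against WT females on WDA, 4 members were at least 5% longer without overlap and none was shorter, where 0.987% of 9628 genes were longer and 0.883% shorter. *Srsf11* was at 3705, 3283 and 3389 bases in HepKO and 3133, 3204 and 3077 bases in WT mice. *Tra2a* was at 1803, 1793 and 1840 against 1671, 1726 and 1697 bases, and *Luc7l2* at 5836, 5316 and 5520 against 5089, 5014 and 5164 bases. *Rbm39* was the fourth (3127 ± 71.2 against 2959 ± 64.0 bases, SD, n = 3). For *Tra2a* the longer effective length and the lower level stood in the same livers. Length and level did not go together in the stage contrasts of females, given as a description. From WDA to Res, *Tra2a* was longer in WT (1835 ± 96.9 against 1698 ± 27.5 bases) and KO females (1952 ± 86.4 against 1748 ± 62.1 bases). Its log2 fold changes there were 0.03 and -0.08.

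In WT males, 3 members were longer and 2 shorter after resolution than on WDA, where 2.18% of 9545 genes were longer and 0.513% shorter. *Tra2a* (1823 ± 57.3 against 1693 ± 21.8 bases), *Luc7l2* and *Luc7l3* were longer, and *Tra2b* (2575 ± 19.3 against 2765 ± 95.2 bases) and *Luc7l* were shorter. Of the 4 members lower without overlap in this contrast, *Tra2b* and *Luc7l* were shorter, *Tra2a* was longer and *Prpf4b* was neither. In KO against WT females on WDA no member was longer or shorter by this measure (0.532% of 9591 genes longer and 0.417% shorter). In the contrast that chose the group, *Ddx17* was longer and *Rbm39*, *Clk4*, *Srsf2* and *U2af2* were shorter in KO, again without a test. The files do not give reads per isoform, so which transcripts carry the shift is not shown.

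**Figure D5:**
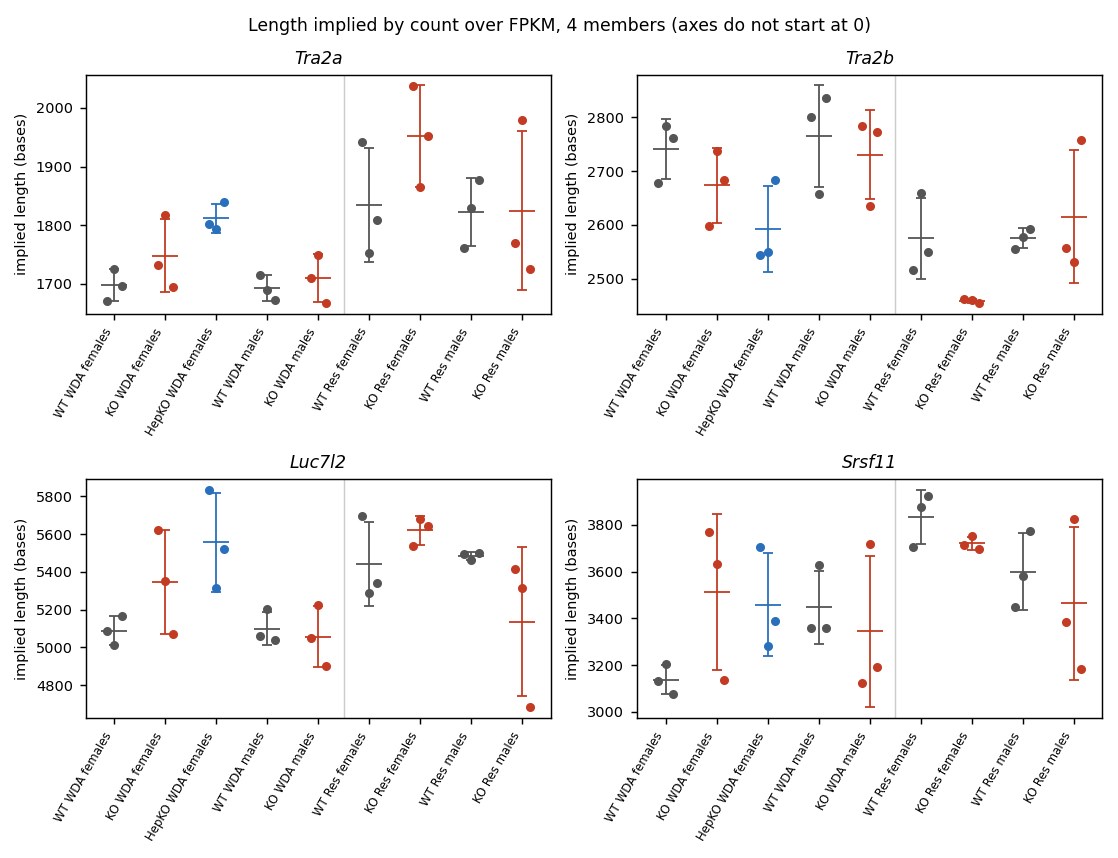
Effective length (bases, count over FPKM, axes that do not start at 0) of *Tra2a*, *Tra2b*, *Luc7l2* and *Srsf11* in the 27 libraries, with a point for each mouse, a bar at the mean and whiskers of 1 SD over the 3 mice of a group. *Srsf11* is at 3077 to 3204 bases in the WT WDA females and at 3283 to 3705 bases in the HepKO livers, and *Tra2b* is shorter in every WT Res male than in any WT WDA male.

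Other genes of the same pathways were examined in lists. In HepKO against WT females on WDA, 0 of them passed the adjusted threshold in edgeR. Without overlap, 7 of 37 core spliceosome genes were lower and 2 higher (unadjusted p-value under 0.05: 4 and 0), 9 and 7 of 47 other SR and hnRNP genes (7 and 3), 3 and 0 of 15 nonsense-mediated decay genes (3 and 0), and 2 and 0 of 11 genes of the nuclear exosome and cap-binding complex (2 and 0). None of 8 genes of O-GlcNAc cycling and UDP-GlcNAc synthesis was without overlap, and 2 and 1 of 16 genes of SR protein kinases, phosphatases and import were. These counts stand beside 9.35% lower and 9.37% higher of all genes without overlap, and 5.25% and 4.81% at the unadjusted threshold. The list medians of -0.13, 0.00, -0.10, -0.15, 0.02 and -0.05 compare with -0.17 over the members and -0.02 over all genes.

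The largest values in those lists were of *Zfc3h1* (-1.09, SE 0.17) and *Ncbp2* (-0.90, SE 0.13), which act in nuclear RNA decay and cap binding, each with an adjusted p-value of 0.150. Others were *Cirbp*, a cold-inducible RNA-binding protein (0.91, adjusted p-value 0.212), and *Upf2* of nonsense-mediated decay (-0.54, adjusted p-value 0.205). In KO against WT Res females the same 4 genes had values of -1.43, -1.03, 0.90 and -0.78, each without overlap. Of the O-GlcNAc genes in that contrast, *Gfpt1*, which feeds UDP-GlcNAc synthesis, was lower (-0.67) and *Oga*, which removes O-GlcNAc, higher (0.48), alongside the low *Ogt*. The mean centred log2 CPM of that whole list overlapped. It was -0.31, -0.16 and -0.14 in KO and -0.32, -0.26 and 0.16 in WT Res females. Of 37 core spliceosome genes 3 were lower and 4 higher there, with a median of 0.08, where 14.5% and 11.3% of all genes were.

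In the stage contrast of WT males edgeR called 1 lower and 5 higher of 47 other SR and hnRNP genes: *Thrap3* fell (-0.39, adjusted p-value 0.0237), and *Cirbp* (1.09, adjusted p-value 0.0313), *Hnrnpdl* (0.79, adjusted p-value 0.00671), *Hnrnpd* (0.75, adjusted p-value 0.00624), *Hnrnpll* (0.51) and *Hnrnpl* (0.46) rose. Of 37 core spliceosome genes 1, *Snrpd2*, fell (-0.62, adjusted p-value 0.0463). *Zfc3h1* rose (0.43, adjusted p-value 0.0304) and *Gnpnat1*, an enzyme of UDP-GlcNAc synthesis, fell (-0.47, adjusted p-value 0.0452). Of all genes 5.98% were called lower and 4.99% higher in that contrast.

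Transcripts whose variation among mice of the same group was most like that of *Ogt* were ranked by Pearson's r of centred log2 CPM over the 27 libraries, among 8200 genes, as a description. *Abcc5* (0.89), *Ddx17* (0.88), *Zfc3h1* (0.87), *Hnrnph1* (0.86), *Phc3* (0.86), *Bicd2* (0.85), *Ubn2* (0.835), *Ttll4* (0.83), *Zfp950* (0.83) and *Dennd4b* (0.83) led the list. Over the 36 members compared the median r was 0.41, against -0.24 over all genes. *Prpf4b* (0.82), *Tra2a* (0.72), *Luc7l3* (0.70) and *Pnisr* (0.69) followed *Ddx17*, whereas *Clk1* (0.21), *Rbm10* (0.10) and *Srsf5* (-0.01) were near 0. *U2af1* had an r of -0.79, rank 8155 of the 8200. The points share each library's depth and scaling. *Ogt* was highest of its group in WT WDA female mouse 7 (58.4 CPM) and KO WDA male mouse 17 (66.6 CPM). The same held for WT Res male mouse 9 (73.8 CPM) and KO Res male mouse 5 (64.4 CPM). WT Res female mouse 13 was at 81.8 CPM, next to 82.1 CPM in mouse 12. Cholangiocyte markers were high in these livers except mouse 12, and the part of such livers in the ranking was not tested.

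Stress-responsive transcripts differed in some of these contrasts as well, not always in the members' direction, and their part in the result was not tested. The 13 heat shock response genes were listed after their values were seen. In HepKO against WT females on WDA, 8 were lower and 0 higher without overlap, where 9.35% and 9.37% of all genes were. The median log2 fold change of the list was -0.69. In KO against WT females on WDA, 2 were lower and 0 higher, where 4.57% and 4.36% of all genes were. *Hspa1b*, an inducible HSP70, was at 3.31, 2.99 and 2.90 CPM in HepKO, 7.93, 6.36 and 4.84 CPM in KO and 35.6, 20.9 and 15.9 CPM in WT mice. *Cirbp*, which cells raise when cool, was at 39.8, 41.2 and 46.9 CPM in HepKO and 18.1, 21.5 and 28.1 CPM in WT mice. *Rbm3*, the other cold-inducible gene listed, did not follow it, with a negative value and overlap in that contrast (-0.38). In WT males 11 of the 13 heat shock genes were called lower in Res than on WDA, where 5.98% of all genes were. Their median was -1.02, and that of the members was 0.18. In the other stage contrasts the heat shock median was negative as well, and the members' positive. They were -0.14 and 0.36 in WT females, -0.43 and 0.09 in KO females, and -0.28 and 0.21 in KO males.

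In Res females, *Cirbp* was at 59.5, 52.8 and 57.5 CPM in KO and 46.6, 13.1 and 29.1 CPM in WT mice, so that WT mouse 1, the WT liver nearest to KO in *Ogt* and *Srsf5*, was also nearest in *Cirbp*. *Rbm3* overlapped between these groups (-0.10). *Hspa1b* was at 1.35, 0.348 and 0.955 CPM in KO and 1.86, 42.9 and 6.57 CPM in WT mice, with WT mouse 1 nearest. Of the 12 heat shock genes tested in that contrast, 3 were lower and 0 higher without overlap, with a median of -0.31. Of all genes 14.5% were lower and 11.3% higher there. In KO against WT Res males the heat shock median was 0.40, with 0 lower and 1 higher of 13 (2.28% and 2.42% of all genes). Endothelial markers were at 312 to 353 CPM in KO and 209 to 303 CPM in WT Res females, Kupffer cell markers at 351 to 501 and 148 to 364 CPM, and cholangiocyte markers at 19.7 to 28.2 and 31.0 to 238 CPM. Of 13 clock genes, whose level follows the hour, 3 were higher in every HepKO than every WT female on WDA and 0 were lower. Of all genes 9.37% were higher and 9.35% lower there. The 3 were *Ciart* (3.02, edgeR's adjusted p-value 0.212), *Per1* (1.64, adjusted p-value 0.0545) and *Nr1d1* (1.16, adjusted p-value 0.478). Between HepKO and KO females on WDA 6 of the 13 were higher and 1 lower without overlap, where 5.44% and 5.30% of all genes were. In that comparison the 2 genes called in edgeR over the whole table were both clock genes, *Ciart* (2.86, adjusted p-value 0.00117) and *Dbp* (1.85, adjusted p-value 0.0328). The labels give no hour of collection, and the part of time of day, handling and temperature in these contrasts was not tested.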

How the data were processed

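Whole-liver RNA from 27 mice was sequenced by the authors (Qiagen kit, BGI library protocol), and their processing notes name HISAT, Bowtie2 and the build GRCm38.p6, without versions. The deposited tables hold estimated counts (expected counts) per gene, which the authors left unnormalized, and FPKM, which the authors scaled to transcript length and depth. Counts were rounded and tested with edgeR 4.0.16 (glmQLFit and glmQLFTest in R 4.3.3) with TMM scaling, filterByExpr at a minimum count of 10 and Benjamini-Hochberg adjustment over all genes tested at 0.05, fitting only the groups compared. The SE printed with a log2 fold change was computed back from the test, as its absolute value over the square root of the F statistic. Log2 CPM used a prior count of 2. "Without overlap" means that every library of one group lies beyond every library of the other on the TMM scaling within that comparison. Columns of the authors' comparisons were not used.

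The members, gene lists and tests were chosen with earlier results of these data known. The 3 contrasts whose libraries chose the members, or share libraries with those, have no test. Values in every library are given for 10 members (*Ogt*, *Clk1*, *Clk4*, *Ddx5*, *Ddx17*, *Srsf5*, *Luc7l3*, *Pnisr*, *Rbm39* and *Son*), and up to 3 called members a direction and up to 3 genes a list are named by size of change. Further members and genes were named after their values were seen, as were the effective lengths and the heat shock, cold-inducible and clock genes. The alternatives were DESeq2 1.42.0, other scalings, no filter, all groups in one fit, each mouse left out and a replicate block. The fit was tested on simulated data. Promoter windows are from RefSeq and transcripts from GENCODE M21. Figures were drawn with matplotlib 3.10.9.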

Additional observations from a re-analysis of the deposited data

Results flagged for a closer look

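For 4 members, every library of one group moved one way and every library of the other the opposite way between parallel contrasts, on the scaling within each comparison. None of these differences was tested, and the Res female libraries in each of them chose the members. In KO against WT after resolution, *Luc7l* had a log2 fold change of -0.59 in females and 0.25 in males, and *U2af1* one of 0.42 in females and -0.19 in males. From WDA to Res in KO mice, *Srsf1* was at -0.33 in females and 0.39 in males, where the libraries overlap on the CPM scaled over all 27. From WDA to Res in females, *Rbm10* was at 0.38 in WT and -0.32 in KO mice. The KO Res males in the first 3 include mouse 5, which carried female-biased transcripts.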

How the results depend on the processing

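For HepKO against WT females on WDA, members called lower numbered 0 in edgeR, 2 with all groups in one fit, 7 with DESeq2 and 0 to 8 with a mouse left out (8 without WT mouse 7), and members called higher 0, 1 with DESeq2 and 0 to 1 with a mouse left out. For Res against WDA in WT males, members called lower numbered 1 in edgeR, 0 with library totals, 2 with DESeq2 and 0 to 2 with a mouse left out, and members called higher 3, 0 with all groups in one fit and 0 to 5 with a mouse left out. For males against females on WDA, members called lower numbered 0 in edgeR, 1 with DESeq2 and 0 to 1 with a mouse left out (1 without WT female mouse 7). The cause was not tested. The described median of KO against WT Res females was -0.48 with library totals, which shift the median of all genes to -0.19, and -0.38 to -0.21 with a mouse left out (-0.21 without WT mouse 12). That of Res against WDA in KO females was 0.0054 with library totals and 0.081 with a replicate block. The deviations of same-numbered mice had correlations of -0.05 and 0.12, and the labels tie the numbers to no shared source. With the annotated length, the members lay at -0.31 from their length bins in KO against WT Res females. Medians near 0 changed sign: that of KO against WT Res males ran from -0.13 to 0.20 and that of WDA males from -0.11 to 0.06 with a mouse left out, and that of WDA females was 0.01 without WT mouse 7. With library totals the signs of *Sf3b1*, *Prpf4b* and *Clk3* also turn in single comparisons. With 3 mice a group, differences smaller than the spread between mice were not detectable.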
